A study of Mus musculus with 6 samples.

Results

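The 9 genes described here encode complement components and one of their inhibitors: C1qa, C1qb, C1qc, C1ra, C1s1, C4b, C3, Cfb and Serping1. They were taken by gene symbol from the 52636 genes of the deposited table, and all 9 had a row with counts in every library. RNA-seq was performed on the vestibular epithelium of male 129S1/SvImJ mice aged 2 to 4 months, with 3 Control animals and 3 animals exposed to the ototoxic nitrile 3,3'-iminodipropionitrile (IDPN), which damages vestibular hair cells. Exposure was through drinking water at 30 mM over 8 weeks, and Control mice drank water without it. Each library held the pooled tissue of 1 animal, namely 2 utricles and 6 cristae, which are sensory organs of balance. The comparison asks how expression in this tissue differs under chronic ototoxic exposure. All Control animals carry title codes with 1 common stem, absent from the IDPN codes, and what that stem stands for cannot be told apart from exposure.

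Complement is a cascade of plasma and tissue proteins that tag surfaces and dying cells for removal. In the classical pathway, C1q, built from A, B and C chains, binds a target and activates the proteases C1r and C1s, which cleave C4 and C2 to form an enzyme that cleaves C3. Factor B belongs to the alternative pathway, which amplifies C3 cleavage, and C1 inhibitor, the product of Serping1, inactivates C1r and C1s. In nervous tissue, C1q is known mainly as a product of microglia and macrophages, and C1q and C3 are known for tagging synapses during development. Several of these genes, including Serping1, Cfb and C4b, are known to respond to interferons.

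The genes lie in compact groups on the GRCm38 mouse genome. The C1q chain genes are neighbours on the minus strand of chromosome 4, with C1qb at chr4:136880129-136886187, C1qc at chr4:136889804-136893065 and C1qa at chr4:136895917-136898803, and each has 3 exons. C1ra (chr6:124512405-124523443, plus strand) and C1s1 (chr6:124530345-124542359, minus strand) lie close together, as do C4b (chr17:34728380-34743882) and Cfb (chr17:34856374-34862518). C3 lies elsewhere on the latter chromosome (chr17:57203970-57228136), and Serping1 is at chr2:84765387-84775444. RefSeq promoter windows on GRCm38.p6, from 250 bases before to 50 bases after a transcription start, were found for 5 of the 9 genes (C1qb, C1qc, C1ra, C1s1 and C3) and not for C1qa, C4b, Cfb and Serping1. The upstream sequences of C1qb and C1qc are shown because the ratio of C1qc to C1qb was higher in all IDPN libraries, and that of C3 because its ratio to C4b was lower in all IDPN libraries. All are from the minus strand, 5′ to 3′, with the stretch of C1qc limited to 99 bases that lie outside annotated exons. Capitals mark a match to the PU.1 motif GAGGAAGT in C1qc, read on the reverse strand, and to TTGCGAAA, a fixed form of the C/EBP motif, in C3.
C1qb chr4:136886201-136886450: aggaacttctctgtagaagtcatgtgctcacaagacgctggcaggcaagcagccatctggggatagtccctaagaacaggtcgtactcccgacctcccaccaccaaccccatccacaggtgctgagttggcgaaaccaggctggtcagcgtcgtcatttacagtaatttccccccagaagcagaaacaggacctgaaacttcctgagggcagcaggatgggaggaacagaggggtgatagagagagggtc
C1qc chr4:136893066-136893164: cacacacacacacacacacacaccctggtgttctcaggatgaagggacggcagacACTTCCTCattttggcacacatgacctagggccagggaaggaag
C3 chr17:57228137-57228386: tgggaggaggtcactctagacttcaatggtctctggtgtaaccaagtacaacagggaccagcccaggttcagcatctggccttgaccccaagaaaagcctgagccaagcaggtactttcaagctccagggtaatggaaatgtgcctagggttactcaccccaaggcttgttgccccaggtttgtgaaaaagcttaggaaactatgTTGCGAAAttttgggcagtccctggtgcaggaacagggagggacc

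Each window was searched on both strands for letters of known elements. PU.1, a transcription factor of macrophages, had its motif in 3.2% of the 32851 RefSeq promoter windows, and among the 5 genes only in C1qc, at -195 to -188 from the RefSeq start. That start lies inside the C1qc gene as placed above, so the match is nearer to the gene's annotated start than these positions tell. TTGCGAAA, a fixed form of the C/EBP motif, was in 0.174% of all windows and, among the 5, only in C3, at -45 to -38. A looser C/EBP form, TTNCNNAA, which the letters above also match, was in 40.7% of all windows and in 4 of the 5, C1qb being the one without it. The GAS element TTCNNNGAA, a known interferon-gamma response element, was in 8.3% of all windows and, among the 5, in C1ra alone. The core of the interferon-stimulated response element (3.44% of all windows) and the NF-kB motif (1.47%) were in none of the 5. A match describes letters in these windows, and the absence of one says nothing about the factor.

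None of the 9 genes was called upregulated or downregulated after IDPN. A gene was called when the DESeq2 Wald test gave an adjusted p (Padj) under 0.05 and the fold change exceeded 1.5. Of the 17650 genes with a Padj, 2.32% were called upregulated and 3.42% downregulated. Without adjustment, 5 of the 9 (C1qa, C1qc, C4b, Cfb and Serping1) had p under 0.05 with a higher level in IDPN, where 7.77% of all genes did so. The edgeR quasi-likelihood test also called 0 of the 9, where it called 1.02% of its genes upregulated, and had the same number, 5, under 0.05 without adjustment against 8.57% of its genes. The log2-Fold_Change was above 0 for 8 of the 9 and below 0 for 1, with a median of 0.53, beside a median of 0.015 over all genes with a Padj. In 3 of the 9 (C1qc, Cfb and Serping1) every IDPN library lay above every Control library, as in 11.1% of all genes, and in 0 of the 9 did every IDPN library lie below, as in 11.4% of all genes. In bulk tissue, a difference in the number of cells of a type and a difference in RNA per cell cannot be told apart.

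**Figure D1:**
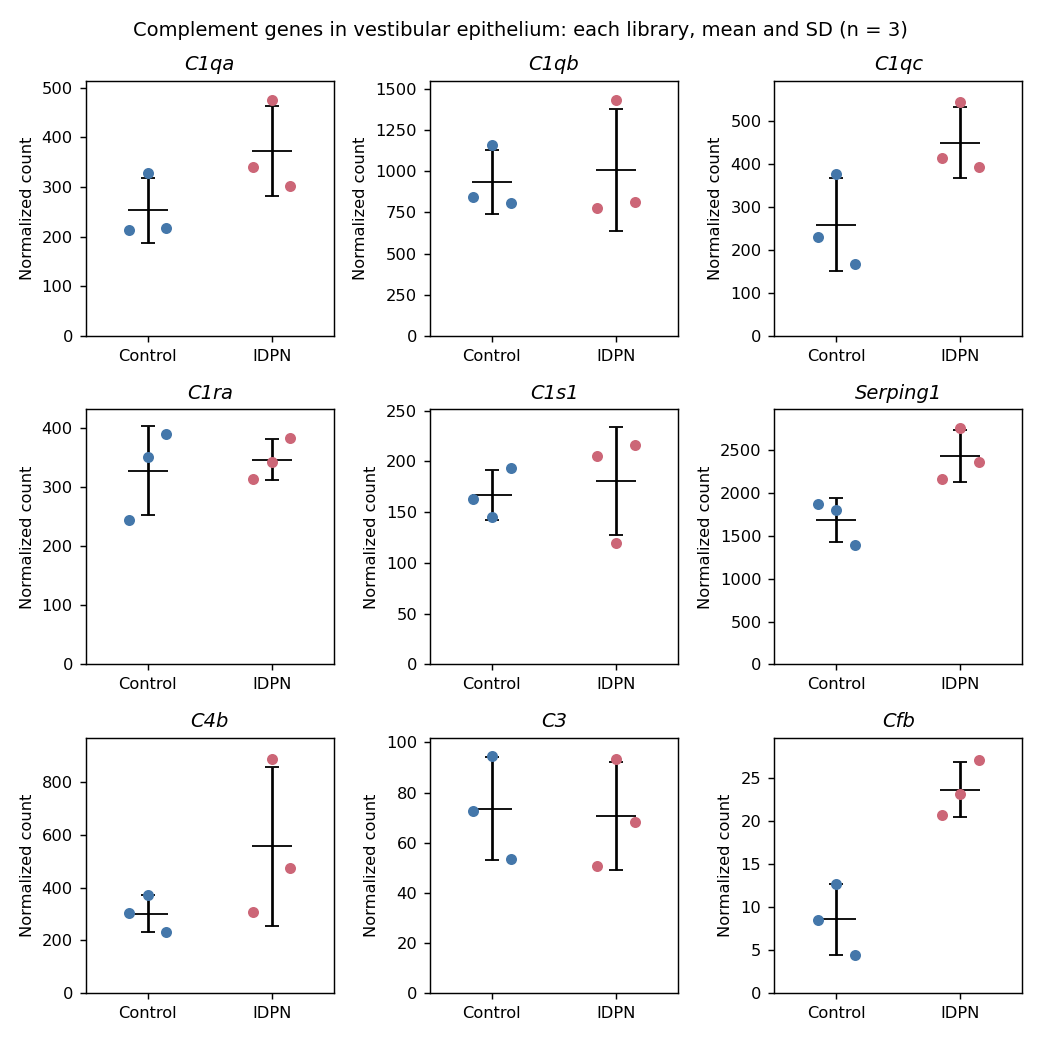
Normalized counts (counts divided by the library's size factor, y axes from 0) of the 9 genes in each of the 3 Control (blue) and 3 IDPN (red) libraries, with the mean and SD. C1qc, Cfb and Serping1 are the genes in which the points of the groups do not overlap, while C1qb, C1ra, C1s1 and C3 have means close together.

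Levels per kilobase (kb) of the longest coding transcript put Serping1 and C1qb first in both groups. In Control, mean normalized counts per kb ran from 957 for Serping1 and 860 for C1qb through 244 for C1qa, 215 for C1qc, 110.2 for C1ra, 56.8 for C1s1 and 56.0 for C4b to 14.3 for C3 and 3.11 for Cfb. The libraries of Serping1 and C1qb overlapped, as did those of C1qa and C1qc and those of C1s1 and C4b, so their ranges do not separate these neighbours. Ranges ignore that the genes were measured in the same libraries. Within each Control library C1qc was below C1qa (ratios of 0.938, 0.995 and 0.663), while the other pairs changed order between libraries. In IDPN the order was Serping1 (1377), C1qb (926), C1qc (375), C1qa (358), C1ra (116), C4b (103), C1s1 (61.2), C3 (13.8) and Cfb (8.58). Here the neighbouring genes separated without overlap were C1qb from C1qc, C1qa from C1ra, and C1s1 from C3. Within each IDPN library Serping1 was also above C1qb and C3 above Cfb, though their ranges overlapped.

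Of the C1q genes, C1qc was the one with no overlap between groups, and C1qb differed least. C1qa, the A chain, had normalized counts, in library order, of 213, 329 and 218 in Control against 341, 475 and 301 in IDPN. Control 2 exceeded IDPN 3, so the groups overlapped. The log2-Fold_Change of C1qa was 0.56 ± 0.26 (SE, n = 3 per group; 95% interval 0.044 to 1.07), with a DESeq2 Padj of 0.232. C1qc, the C chain, had 232, 379 and 167 in Control and 414, 546 and 393 in IDPN. Every IDPN library was above every Control library, with IDPN 3 close above Control 2. Its log2-Fold_Change was 0.80 ± 0.29 (SE; 95% interval 0.24 to 1.36), with a DESeq2 Padj of 0.0713 and an edgeR adjusted p of 0.161. Without Control 2, the highest Control library, C1qc passed the thresholds with a log2-Fold_Change of 1.18 and a DESeq2 Padj of 0.00148. That was 1 of the 6 fits with a library left out, and C1qc was not called in the others. It had 0.56 without Control 3 (DESeq2 Padj = 0.209) and 0.64 without IDPN 2 (DESeq2 Padj = 0.340). C1qb, the B chain, had 844, 1157 and 805 in Control and 776, 1434 and 813 in IDPN. IDPN 1 and IDPN 3 lay within or below the Control range, and IDPN 2 was above it. The log2-Fold_Change of C1qb was 0.11 ± 0.25 (SE; 95% interval -0.38 to 0.60; DESeq2 Padj = 0.900), and without IDPN 2 it was -0.23.

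The C1qb chain took a smaller share of the C1q transcript level in IDPN. Shares and ratios within a library do not depend on how libraries are scaled to each other. C1qb took 66.1%, 62.8% and 68.0% of the summed counts per kb of the 3 chains in Control and 51.5%, 59.1% and 54.8% in IDPN. All IDPN shares lay below all Control shares (two-sided exact permutation p = 0.10, the smallest that 3 against 3 libraries can give). The ratio of C1qc to C1qb, per kb, was 0.248, 0.296 and 0.188 in Control and 0.482, 0.345 and 0.437 in IDPN, a mean log2 difference of 0.80 (exact permutation p = 0.10, adjusted p = 0.20 over the 6 ratios computed). The ratio of C1qa to C1qb was 0.265, 0.298 and 0.283 in Control and 0.460, 0.347 and 0.388 in IDPN, a mean log2 difference of 0.49 (exact permutation p = 0.10, adjusted p = 0.20). Neither pair of groups overlapped, and 3.53% of all genes had a ratio to C1qb that was higher in every IDPN library. The ratio of C1qc to C1qa overlapped between groups (mean log2 difference 0.31, exact permutation p = 0.20, adjusted p = 0.30). The sum of normalized counts over the chains was 1289, 1864 and 1190 in Control and 1531, 2455 and 1507 in IDPN, with overlap between groups (log2 ratio of means 0.34, exact permutation p = 0.50).

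**Figure D2:**
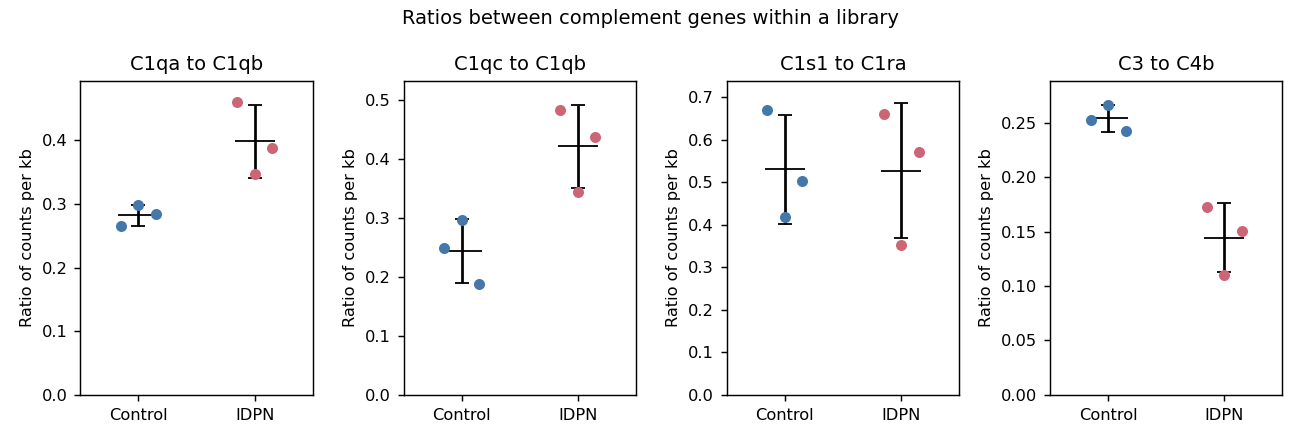
Ratios of counts per kb between complement genes in each Control (blue) and IDPN (red) library, with the mean and SD of 3 libraries on axes from 0. The ratios of C1qa and of C1qc to C1qb lie higher in all IDPN libraries and that of C3 to C4b lies lower, while C1s1 to C1ra overlaps.

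Macrophage markers were measured beside the C1q genes, since macrophages are a known source of C1q. All 19 genes of the macrophage list had a Padj. Their log2-Fold_Change was above 0 for 16 and below 0 for 3, with a median of 0.50 beside 0.015 over all genes. The first markers of the list were not called, at -0.011 for Csf1r (Padj = 0.988) and -0.098 for Cx3cr1 (Padj = 0.937), the receptors for CSF1 and fractalkine, and 0.61 for Aif1 (Padj = 0.684), which encodes IBA1 (all by DESeq2). Of the 19, 2 were called upregulated by DESeq2, where 2.32% of all genes were, and 0 downregulated. These were Lyz2, a lysozyme gene (log2-Fold_Change 0.77, Padj = 0.00401), and Lyve1, a hyaluronan receptor gene of some macrophages and of lymphatic vessels (1.30, Padj = 0.00251), both named after their values were seen. By edgeR neither was called, with an adjusted p of 0.0708 for Lyz2 and 0.0636 for Lyve1. In 9 of the 19 every IDPN library was above every Control library, as in 11.1% of all genes. The summed macrophage level was 7138, 7972 and 6697 in Control and 9200, 13622 and 9600 in IDPN, with no overlap (exact permutation p = 0.10). Without Lyz2, a choice made after seeing the data, the sum was 3288, 3375 and 2962 in Control and 3322, 4489 and 3775 in IDPN, and the groups overlapped (exact permutation p = 0.20).

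IDPN 2 was the highest of the 6 libraries for C1qa, C1qb, C1qc, C4b and Serping1. It was also the highest for the summed macrophage markers, and for the monocyte and neutrophil list, at 92.4 against 31.1 to 41.4 in the other libraries, with Ly6g and Plac8 at 0 throughout. Haemoglobin and other erythroid genes, which mark blood, summed to 17157, 36635 and 16167 in Control and 40335, 49091 and 34689 in IDPN, with overlap between groups. Of the 5, 4 (Hba-a1, Hba-a2, Hbb-bs and Alas2) were called upregulated by DESeq2, where 2.32% of all genes were. The edgeR adjusted p of these 4 ran from 0.110 (Alas2) to 0.185 (Hbb-bs). Control 2 was the highest Control library and IDPN 2 the highest IDPN library for this blood list, as for the C1q chains. The part of macrophage, monocyte or blood content in the complement levels was not tested.

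C1ra and C1s1, which encode the proteases that C1q activates, differed little. C1ra had 245, 351 and 390 in Control and 314, 343 and 384 in IDPN. All IDPN libraries lay within the Control range, and the log2-Fold_Change was 0.077 ± 0.23 (SE; 95% interval -0.38 to 0.53; DESeq2 Padj = 0.927). C1s1 had 163, 145 and 194 in Control and 205, 119 and 217 in IDPN. IDPN 2 was the lowest of the 6 and IDPN 1 and 3 the highest, and the log2-Fold_Change was 0.11 ± 0.29 (SE; 95% interval -0.46 to 0.68; DESeq2 Padj = 0.916). These intervals leave room for a fold change of 1.5 upwards in C1s1 and not in C1ra. The ratio of C1s1 to C1ra, per kb, had a mean log2 difference of -0.031 (exact permutation p = 0.90, adjusted p = 0.90). The near-identical copies C1rb (counts of 0 to 2 per library) and C1s2 (0 to 8) held few counts, and 576 exon bases of C1s1 overlap the antisense gene Gm16567, which had 0 counts in every library.

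Serping1, which encodes C1 inhibitor, had the highest mean per kb of the 9, with libraries that overlapped those of C1qb, and the lowest Padj of the 9, though its fold change was also under 1.5. Its normalized counts were 1875, 1801 and 1398 in Control and 2166, 2767 and 2369 in IDPN. Every IDPN library was above every Control library. The log2-Fold_Change was 0.53 ± 0.18 (SE, n = 3 per group; 95% interval 0.17 to 0.88), with a DESeq2 Padj of 0.0532 and an edgeR adjusted p of 0.0983. With TMM size factors the DESeq2 Padj was 0.0404, while the fold change stayed under 1.5. Leaving out each library in turn gave log2-Fold_Changes of 0.41 to 0.61. Relative to its target proteases, the ratio of Serping1 to C1ra plus C1s1, per kb, was 7.72, 6.10 and 4.02 in Control and 6.99, 10.05 and 6.63 in IDPN. IDPN 1 and IDPN 3 lay within the Control range (mean log2 difference 0.43, exact permutation p = 0.40, adjusted p = 0.48).

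C4b, the complement C4 gene whose product C1s cleaves, varied most among the IDPN animals relative to its mean. It had 302, 372 and 230.4 in Control and 306, 889.6 and 473 in IDPN. IDPN 2 and IDPN 3 were above all Control libraries, while IDPN 1 lay within the Control range. The log2-Fold_Change was 0.88 ± 0.33 (SE; 95% interval 0.25 to 1.52), with a DESeq2 Padj of 0.0847 and an edgeR adjusted p of 0.210. Without IDPN 1 it was 1.18 and passed the thresholds (DESeq2 Padj = 0.00730), and without IDPN 2 it was 0.37 (DESeq2 Padj = 0.650). The paralog C4a, which shares much of its sequence with C4b, had 0 to 24 counts per library, and summing both genes gave 0.88 (DESeq2 Padj = 0.0786). C2, the partner of C4 in the C3-cleaving enzyme, had 344, 420 and 359 in Control and 550, 375 and 496 in IDPN, with overlap between groups (log2-Fold_Change 0.34, DESeq2 Padj = 0.453).

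C3, the central component on which the pathways converge, was low and differed little in mean between groups. It had 72.8, 94.6 and 53.4 in Control and 50.5, 93.4 and 68.1 in IDPN. The lowest library was IDPN 1 and the highest Control 2, with wide overlap, and the log2-Fold_Change was -0.058 ± 0.39 (SE; 95% interval -0.82 to 0.70; DESeq2 Padj = 0.969). This interval includes a fold change of 1.5 in either direction. The ratio of C3 to C4b, per kb, was 0.252, 0.267 and 0.243 in Control and 0.173, 0.110 and 0.151 in IDPN. Within each group the order of the libraries was the same for both genes, and all IDPN ratios were lower (mean log2 difference -0.84, exact permutation p = 0.10, adjusted p = 0.20), where 21.4% of all genes had a ratio to C4b that was lower in every IDPN library.

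Cfb, which encodes factor B, had the highest fold change of the 9 and the lowest counts. The deposited estimated counts were 7, 11 and 5 in Control and 25, 23 and 29 in IDPN, or 8.49, 12.7 and 4.45 and 20.7, 23.1 and 27.1 after normalization. Every IDPN library was above every Control library. The log2-Fold_Change was 1.48 ± 0.71 (SE; 95% interval 0.092 to 2.88), with a DESeq2 Padj of 0.247 and an edgeR adjusted p of 0.197. At this depth the interval runs from almost no difference to a large one. Cfb also shares 2246 exon bases with the read-through gene Gm20547, to which the authors' counting gave 2 counts in Control 2 and 0 in the other libraries.

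**Figure D3:**
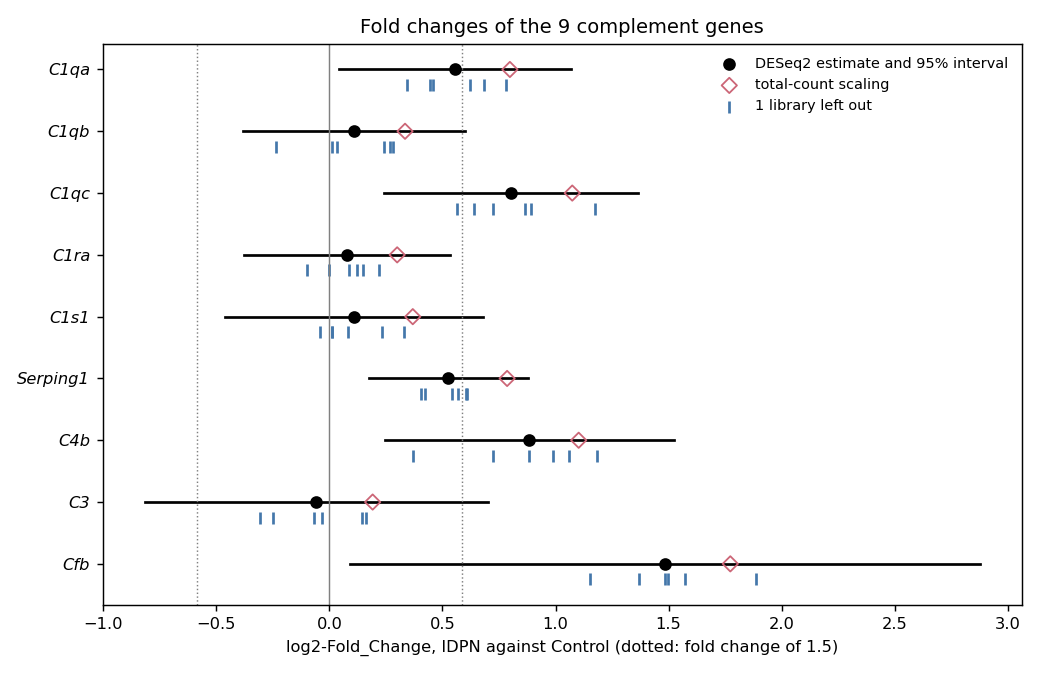
log2-Fold_Change of IDPN against Control for each of the 9 genes (black, DESeq2 estimate with its 95% interval), with the estimate under total-count scaling (red diamonds) and after leaving out each library in turn (blue ticks); dotted lines mark a fold change of 1.5. Under total-count scaling C1qc, C4b and Serping1 pass the thresholds and C3 moves from -0.058 to 0.19.

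With all libraries kept, the only choice of scaling under which any of the 9 was called was total counts. Under the main scaling, C1qc and C4b were called only when a library was left out, as given above. With size factors proportional to total counts, C1qc (log2-Fold_Change 1.07, Padj = 0.00745), C4b (1.10, Padj = 0.0126) and Serping1 (0.79, Padj = 0.00180) passed the thresholds in DESeq2. The same scaling moved the median of all genes with a Padj from 0.015 to 0.27, so relative to that median the differences stayed near those above. Ratios within a library are free of this choice.

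Genes of the interferon response were measured because several complement genes are known interferon targets. Of 20 such genes, 11 were called upregulated by DESeq2 (2.32% of all genes) and 0 downregulated. In 14 every IDPN library was above every Control library (11.1% of all genes), and the median log2-Fold_Change was 1.60. Defining members included Stat2 (0.98, Padj = 0.000150) and Irf7 (1.94, Padj = 1.11e-06), transcription factors of this response, tested by DESeq2. The summed level was 35415, 37530 and 25034 in Control and 28357, 52621 and 62165 in IDPN, with overlap between groups (exact permutation p = 0.30). Most of that sum was B2m, the light chain gene of MHC class I, at -0.075 (DESeq2 Padj = 0.931). Without B2m, a choice made after seeing the data, the sum was 4759, 5831 and 5719 in Control and 9586, 19115 and 36907 in IDPN, with every IDPN library higher and IDPN 1 the lowest of them (exact permutation p = 0.10). Of the acute phase and NF-kB list, 0 of the 10 genes with a Padj were called (DESeq2), and the median was 0.52. Whether either response had a part in the complement levels was not tested.

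A wider list of 63 complement genes placed the 9 among the rest of the system. Of these, 41 had a Padj, 13 were at 0 in every library and the rest were given none by DESeq2. By DESeq2, 2 of the 41 were called upregulated (2.32% of all genes) and 1 downregulated (3.42% of all genes), none of them among the 9. The median log2-Fold_Change of the 41 was 0.14, with 26 above 0 and 15 below. In 11 every IDPN library was higher (11.1% of all genes) and in 6 every one was lower (11.4% of all genes).

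The upregulated genes belong to the lectin and alternative pathways. Fcna, which encodes ficolin A, a pattern-recognition protein of the lectin pathway, had 14.6, 32.3 and 11.6 normalized counts in Control and 101, 63.3 and 105.5 in IDPN. All IDPN libraries were above all Control libraries, and Fcna rose by 2.22 ± 0.48 on the log2 scale (SE), with a DESeq2 Padj of 0.000209 and an edgeR adjusted p of 0.0300. Cfp, which encodes properdin, the stabiliser of the alternative pathway enzyme that contains factor B, had 35.2, 31.2 and 36.5 in Control and 96.0, 117 and 71.9 in IDPN. The groups were apart, and Cfp rose by 1.47 ± 0.38 on the log2 scale (SE), with a DESeq2 Padj of 0.00393 and an edgeR adjusted p of 0.0415. Without IDPN 2 the DESeq2 Padj of Cfp was 0.0815. Of the other lectin pathway genes, 4 had a Padj and 0 were called (DESeq2).

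Clu, which encodes clusterin, a chaperone that also restrains the terminal pathway, was the downregulated gene. It was by far the most abundant gene of the list, with 218218, 188038 and 154007 in Control and 96765, 106458 and 93998 in IDPN. All IDPN libraries lay below all Control libraries, and Clu fell by DESeq2 (log2-Fold_Change -0.91 ± 0.17 (SE), Padj = 4.41e-06) with an edgeR adjusted p of 0.0685. With total-count scaling its log2-Fold_Change was -0.64 (DESeq2 Padj = 0.0166). Vtn, which encodes vitronectin, another inhibitor of the terminal complex, had 2040, 1656 and 1795 in Control and 1220, 1286 and 1221 in IDPN, without overlap. Its log2-Fold_Change of -0.56 ± 0.16 (SE) had a DESeq2 Padj of 0.0117 but missed the fold threshold, except without Control 2 (-0.63, Padj = 0.0138), and with total-count scaling it was -0.31 (Padj = 0.437).

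Other complement genes whose groups did not overlap did not pass the test. Higher in every IDPN library were the protease gene Cfi (log2-Fold_Change 0.76, Padj = 0.124), the membrane inhibitor genes Cd59a (0.26, Padj = 0.377) and Cd59b (0.78, Padj = 0.530), the anaphylatoxin receptor genes C3ar1 (0.49, Padj = 0.646) and C5ar1 (0.97, Padj = 0.314), and Cd93 (0.58, Padj = 0.298), all by DESeq2. Lower in every IDPN library were the membrane regulator genes Cr1l (-0.22, Padj = 0.531), Susd4 (-0.47, Padj = 0.239) and Csmd1 (-0.99, Padj = 0.0737), of which Cr1l moved to 0.024 with total-count scaling. No other classical, terminal, membrane regulator or receptor gene was called either.

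**Figure D4:**
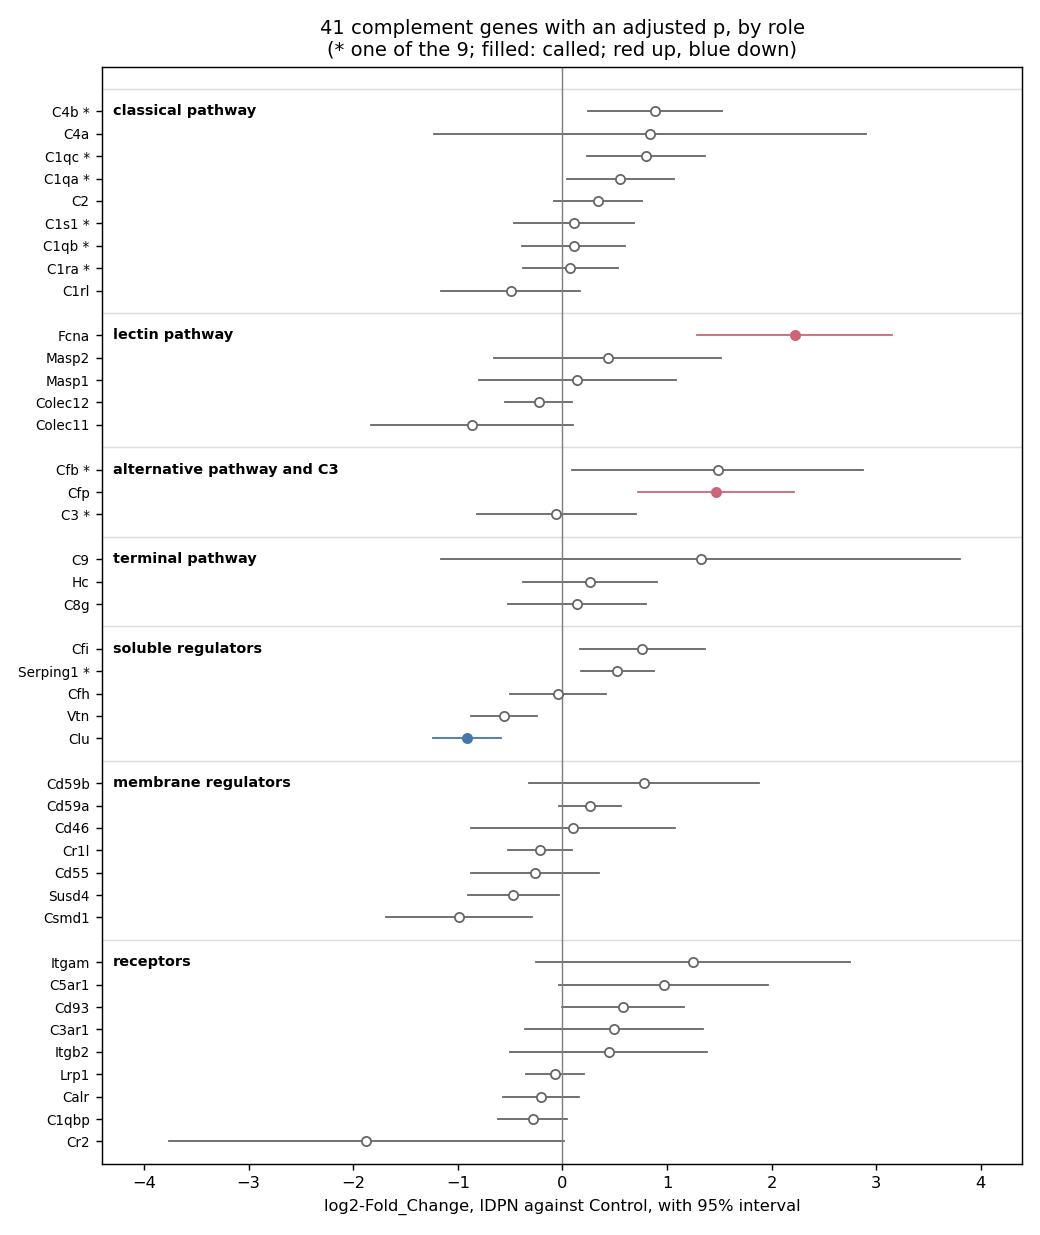
log2-Fold_Change of IDPN against Control with its 95% interval for the 41 complement genes with a Padj, grouped by role; asterisks mark the 9 genes and filled points the genes called (red upregulated, blue downregulated). Fcna at 2.22 and Cfp at 1.47 lie above 0 and Clu at -0.91 below, and most other intervals cross 0.

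The tissue was checked against markers of the cells it could hold. Of 10 hair cell genes, 6 were called downregulated by DESeq2, where 3.42% of all genes were. Among the 6 were the transcription factor genes Pou4f3 and Gfi1 (log2-Fold_Change -1.21 for Gfi1), while Myo7a had 0.015 (DESeq2 Padj = 0.987). The hair cell sum was 27515, 31183 and 30931 in Control and 20383, 20274 and 19861 in IDPN, and that of supporting cells ran from 212808 to 283769 in Control and from 164079 to 195030 in IDPN, each without overlap (exact permutation p = 0.10). Of the 10 supporting cell genes, DESeq2 called 0, with log2-Fold_Changes below 0 for 8 and above 0 for 2. The libraries also held genes of Schwann cells (98108 to 240759), dark and transitional cells (54224 to 89384), fibroblasts and stroma (21460 to 40363), endothelium and pericytes (14402 to 22832) and melanocytes (7787 to 22582), with overlap between groups in each sum. By DESeq2, the genes called in the stromal, Schwann cell, endothelial and melanocyte lists were 1 of 9 stromal (Postn) and 1 of 8 Schwann cell genes (Sox10) upregulated, and 1 of 8 endothelial (Kdr) and 1 of 7 melanocyte genes (Kit) downregulated. Of all genes, 2.32% were called upregulated and 3.42% downregulated. Calls in the dark and transitional cell list are not reported here. Lymphocyte genes were sparse, with sums of 126 to 235 mostly from Cd79a, 1 of 11 with a Padj, and Nkg7, Gzma and Trbc1 at 0. Total estimated counts were 40474847 to 43566332 per library, and counts were made without molecular identifiers. The SE values are those of DESeq2, which combine count noise with a dispersion moderated across genes. They are therefore not a gene's own spread between the 3 animals of a group.

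**Figure D5:**
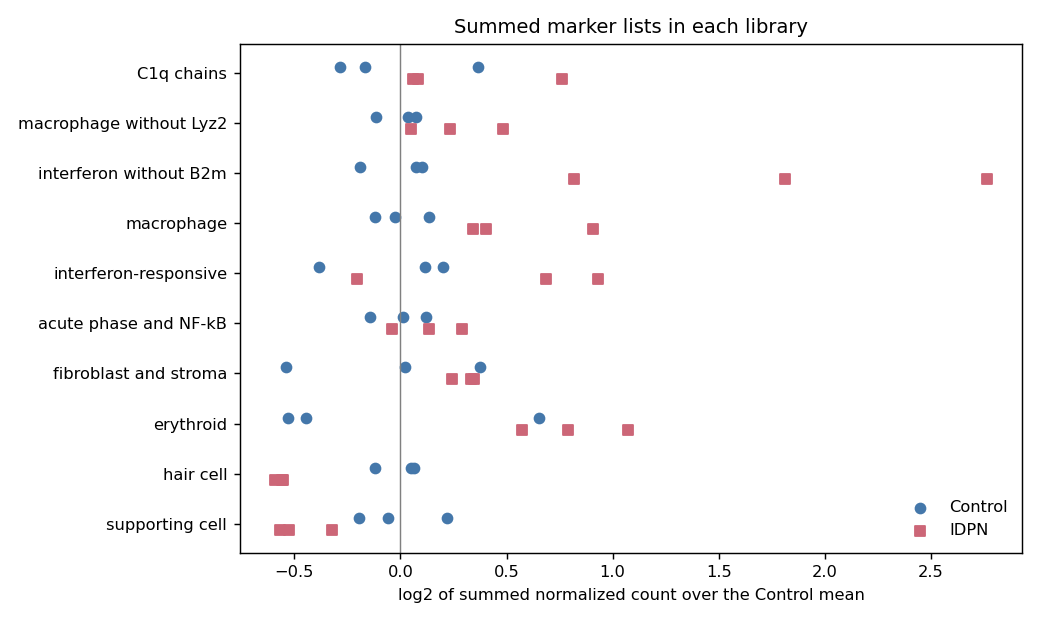
Summed normalized counts of marker lists and of the C1q chains in each Control (blue circles) and IDPN (red squares) library, as the log2 ratio to the Control mean (x axis, 0 marking that mean). The macrophage sum is higher in all IDPN libraries and the hair cell and supporting cell sums lower, while the C1q and erythroid sums overlap between groups, and the interferon-responsive sum overlaps with B2m and not without it.

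Some genes had a pattern across the 6 libraries close to that of the complement genes. Likeness was the mean absolute difference between centred log2 normalized counts, over 11103 genes with a mean of at least 100, where 0 is an identical pattern. Among the closest to the mean of the C1q chains were Pfkfb3 (0.0786) and Ly6e (0.115). The closest to C3 were B2m (0.0676), Car14 (0.0740) and Snrpf (0.0774), and to C4b Zbtb7b (0.0813), Kdm6b (0.126) and Nfkbia (0.141). The search ran over many genes in 6 libraries, so some close patterns are found whatever the gene.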

How the data were processed

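Vestibular epithelium RNA was reverse transcribed from 6 to 11 ng under a SMART-seq2 protocol, which does not mark strand, with 8 and then 12 cycles of amplification. The authors aligned reads with STAR 2.5.3a to GRCm38 and deposited estimated counts (expected counts) per gene from RSEM 2.3.0, as whole numbers with no normalization. RSEM splits reads between near-identical genes. Counts were tested in DESeq2 1.42.0 (R 4.3.3; Wald test, median-of-ratios size factors, independent filtering on, no covariate) over the whole table. Cook's filtering removed the p of 40 genes. The named genes were the 9, the called or non-overlapping genes of the wider list with a mean of at least 10, their paralogs and C2, the first 3 genes of a marker list, and the 3 genes of closest pattern. Members and lists were chosen with earlier results of these data known. Single values were compared by two-sided exact permutation tests, and intervals are Wald intervals. Alternatives were edgeR 4.0.16 (quasi-likelihood test), total-count and TMM size factors, a minimum of 10 counts in 3 libraries, independent or Cook's filtering off, a test against a fold change of 1.5, summed paralogs, ratios without length, and leaving out each library. Positions and lengths came from GENCODE M21, a later release than the authors' annotation on the same build. The code was tested on simulated data. Some genes that these rules would name are not reported here.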

Additional observations from a re-analysis of the deposited data

How the results depend on the processing

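Of 72 fits of the 9 genes under other settings with all libraries, 68 kept their direction and their side of the thresholds, 3 passed the thresholds and 1 reversed, the last 4 all with total-count scaling. There C1qc was 1.07, C4b 1.10, Serping1 0.79 and C3 0.19 (log2), 3 of the 9 and 5 genes of the wider list were called upregulated, and the endothelium sum (0.19) and the dark and transitional cell sum (0.027) reversed from -0.063 and -0.27. In edgeR 0 genes of the wider list were downregulated, and against a fold change of 1.5 in DESeq2 0 were called upregulated and 0 downregulated, with Padj = 0.0746 for Fcna. Turning off independent or Cook's filtering, or testing against 1.5, leaves the log2-Fold_Changes unchanged, so direction under these settings was fixed in advance. The test against 1.5 is also stricter than the main test, so it could not add calls.

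Leaving out each library in turn gave log2-Fold_Changes of 0.34 to 0.78 for C1qa, -0.23 to 0.28 for C1qb (reversed without IDPN 2), 0.56 to 1.18 for C1qc (called without Control 2), -0.099 to 0.22 for C1ra (reversed without Control 1, and at -0.0015 without IDPN 3), -0.043 to 0.33 for C1s1 (reversed without IDPN 3), -0.31 to 0.16 for C3 (reversed without Control 2, and at 0.14 without IDPN 1), 0.37 to 1.18 for C4b (called without IDPN 1), 1.15 to 1.89 for Cfb and 0.41 to 0.61 for Serping1. The number of the 9 called upregulated ran from 0 to 1, and in the wider list from 1 to 3 upregulated and from 1 to 2 downregulated. The ratio of C1s1 to C1ra ran from -0.22 to 0.24 (log2; 0.15 without Control 1), and the endothelium sum from -0.23 to 0.086. The cause of these shifts was not tested. Without Lyz2, the macrophage sum had a log2 ratio of 0.27 in place of 0.57, and without B2m the interferon-responsive sum had 2.01 in place of 0.55.

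With 3 animals per group the permutation tests cannot go below 0.10, and the lowest counts, of 5 to 29 per library, were those of Cfb. No paired analysis was possible because the labels give no replicate numbers, so libraries were numbered in accession order. IDPN 2 and IDPN 3 also share a stem in their title codes, which IDPN 1 does not have. Nothing beyond these codes ties animals to litters or cages, and the p-values treat the animals as independent. If animals with a common stem shared a litter or cage, those p-values could be too small.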
